A study of Mus musculus with 2 samples.

Results

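The cells described here are those that the authors classed as Squam, the superficial squamous cells of the mouse corneal epithelium. They were chosen by their class name in the authors' deposited annotation, without the separate class Squam*, and there were 6029 of them among 33885 cells of 13 classes. The dry eye library held 2973 Squam cells among 16420 cells and 207030777 unique molecular identifiers (UMIs, which count single RNA molecules), and the control library held 3056 among 17465 cells and 191493194 UMIs. All tissue came from 7 males of the inbred strain C57BL/6J, each at an age of 10 weeks. On the right side their extraorbital and intraorbital lacrimal glands were cut out, and the corneas were taken 9 days later. The dry eye library pooled the corneal epithelium of 6 right eyes, since 1 eye hurt in surgery was left out, and the control library pooled that of the 7 left eyes of the same mice, which had not been operated on. Every mouse thus carried the gland loss, and the side of the eye cannot be told apart from the treatment. With 1 library per group there was no test between dry eye and control: ratios and shares are given with exact 95% Clopper-Pearson intervals that cover counting error only, and the spread between animals is unknown.

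The corneal epithelium is a stratified, non-keratinizing sheet in which cells born in the basal layer move up through the wing layer and are shed from the surface as flat squamous cells. The outermost cells seal the surface with tight junctions and carry membrane mucins on small folds that hold the tear film. Skin, by contrast, builds a cornified envelope, a protein shell crosslinked by transglutaminases from precursors such as small proline-rich and late cornified envelope proteins, and sheds its outer cells as proteases cut their corneodesmosomes. Drying of the eye surface is known to bring skin-like features into surface epithelia.

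With earlier results of these data known, the class was described by 6 markers. These were Lce3a and Lce3f, which encode late cornified envelope proteins, Il4i1, an L-amino acid oxidase, Alpl, the tissue-nonspecific alkaline phosphatase, Cd274, the immune checkpoint ligand PD-L1, and Krt23, a type I keratin. All 6 had their highest summed level in Squam in both libraries among the classes with at least 100 cells. Levels are CPM (counts per 1000000): the UMIs of a gene summed over a class and scaled to 1000000 UMIs of that class. Krt23 stood at 123 CPM in Squam cells and 0.414 CPM in Wing cells of dry eye, and at 90.9 CPM in Squam cells and 0.296 CPM in Wing cells of control. The smallest step from Wing in dry eye was that of Alpl, with 69.4 CPM in Squam and 1.15 CPM in Wing of dry eye, a ratio of 60.5. Steps from Squam* of dry eye were smaller. Cd274 had 138 CPM in Squam and 99.5 CPM in Squam*, Lce3a 1278 and 889 CPM, Alpl 69.4 and 40.7 CPM, and Krt23 123 and 62.7 CPM. Lce3f, with 22.3 and 2.75 CPM, and Il4i1, with 44.2 and 0.550 CPM, stood further apart. Most of the markers thus do not set Squam far apart from Squam*. The authors' classes may rest on these genes, so such steps describe the class and test nothing.

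**Figure D1:**
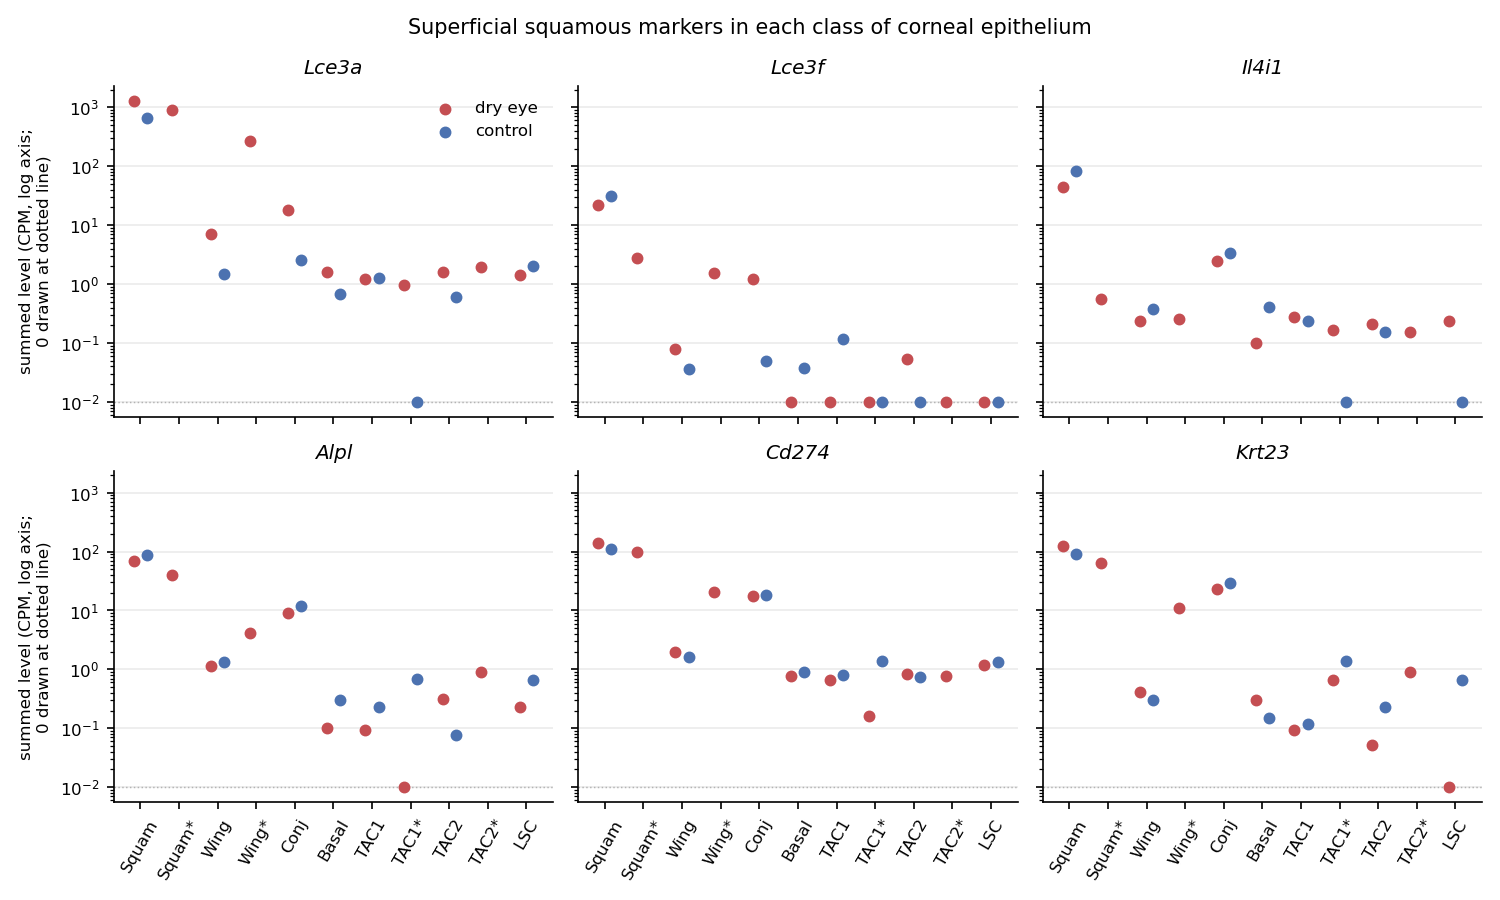
Summed level in CPM (log axis) of the 6 superficial squamous markers in each class with at least 100 cells, dry eye left and control right, with levels of 0 drawn at the dotted line. Every marker peaks in Squam; Lce3a reaches 1278 CPM in dry eye and 648 CPM in control there, and Squam* of dry eye comes next for Lce3a with 889 CPM.

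The markers did not cover the whole class. To compare cells at one depth, UMIs were drawn at random until every cell held 3000 of them, leaving 2854 dry eye and 2987 control Squam cells and dropping 119 and 69 shallower ones. A UMI of any of the 6 markers was then seen in 50.1% of dry eye Squam cells (48.3 to 52.0%) and in 32.5% of control ones (30.8 to 34.2%). In Basal cells, where these genes should be silent and free RNA would show, the shares were 0.797% in dry eye and 0.724% in control. Wing cells had 2.19% in dry eye and 1.37% in control, Conj cells 12.9% and 12.1%, and Squam* cells of dry eye 35.8%. Squam cells had a median of 9518 UMIs in dry eye and 9342.5 in control before thinning, so depth was close in both libraries.

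Among all cells, the share of Squam differed little: it was 18.1% in dry eye (17.5 to 18.7%) and 17.5% in control (16.9 to 18.1%), and the intervals overlapped. The denominator mattered. Set against the suprabasal classes alone (Wing, Wing*, Squam and Squam*), Squam made up 42.3% in dry eye (41.2 to 43.5%) and 35.0% in control (34.0 to 36.1%). Without the starred classes among them it made up 46.7% in dry eye (45.5 to 48.0%) and 35.1% in control (34.1 to 36.1%). Squam* was a class of the dry eye library, with 217 cells or 1.32% of the total against 0 of 17465 control cells, which allows a share of up to 0.0211%. With Squam* added, the shares were 19.4% in dry eye and 17.5% in control. Each share rests on 1 dissociation per group, and the loss of fragile surface cells during digestion was not measured.

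Squam cells devoted much of their RNA to few genes. The 10 leading genes held 31% of the class's UMIs in dry eye and 30.6% in control, against 17.1% and 17% in Wing cells. S100a6, a calcium-binding protein, and Tmsb4x, the actin-binding thymosin beta 4, led in both libraries, followed by Gsto1, a glutathione transferase of the omega class. Asprv1, a retroviral-like aspartic protease known from the upper epidermis, stood at 32824 CPM in Squam and 4150 CPM in Wing of dry eye, and at 23881 CPM in Squam and 2596 CPM in Wing of control. Psca, a GPI-anchored protein of the Ly6 family, had 26005 CPM in Squam and 1999 CPM in Wing of dry eye, and 29207 CPM in Squam and 1392 CPM in Wing of control. Fth1, the heavy chain of the iron store ferritin, had 17146 CPM in Squam and 2006 CPM in Wing of dry eye, and 20897 CPM in Squam and 1998 CPM in Wing of control. Krt12, the keratin specific to the cornea, ran the other way, with 17322 CPM in Squam and 31536 CPM in Wing of dry eye, and 12305 CPM in Squam and 30950 CPM in Wing of control. Ribosomal protein genes took a median of 6.43% of a Squam cell's UMIs in dry eye and 6.02% in control, where Wing cells had 20.5% and 21.0% and Basal cells 34.1% and 33.4%. The number of genes seen at 3000 UMIs was lower too, with medians of 932 in Squam and 1119 in Wing of dry eye, and 994 in Squam and 1169 in Wing of control.

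Against Wing cells, 10.5% of 4620 tested genes were at least 2-fold higher in Squam in both libraries and 29.5% were at most 0.5-fold. A gene counted as tested with at least 50 UMIs over the groups compared and 20 CPM in one of them. Besides the markers, the largest steps were those of Plekhs1 (a pleckstrin homology protein), Clic5 (a chloride intracellular channel protein linked to apical actin), the zinc importer Slc39a4, the simple-epithelial keratin Krt7, lactoferrin (Ltf) and the dicarboxylate transporter Slc13a2. Plekhs1 had 145 CPM in Squam and 1.08 CPM in Wing of dry eye, and 156 CPM in Squam and 1.02 CPM in Wing of control. Krt7 and Slc13a2 were higher still in Conj, so they do not set Squam apart from that class. Among the deepest drops were the glycogen phosphorylase Pygl, the protease inhibitor Spink7 and fibronectin (Fn1). Dapl1, a death-associated protein homologue abundant in Wing cells, had 185 CPM in Squam and 2572 CPM in Wing of dry eye, and 215 CPM in Squam and 3373 CPM in Wing of control. By list, 12 of 16 tested genes of the type I interferon response, 8 of 13 of the interferon gamma response and MHC class I, and 6 of 7 keratins of simple and mucosal epithelia were at least 2-fold higher in Squam, with 0 lower in each list. In contrast, 7 of 11 desmosome genes and 13 of 22 oxidative stress and detoxification genes were at most 0.5-fold. No member of the tight junction list was 2-fold lower, and 6 of its 17 were 2-fold higher. Against Conj cells, 4.83% of 4429 tested genes were at least 2-fold higher in Squam in both libraries and 17.1% were at most 0.5-fold. Slurp1, a secreted Ly6 protein of the cornea, had 14496 CPM in Squam and 2935 CPM in Conj of dry eye, and 13173 CPM in Squam and 2877 CPM in Conj of control.

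Squam cells varied along the marker genes. The marker sum at equal depth was compared across cells with each of 2212 genes seen in at least 10% of Squam cells of both libraries, over 2854 dry eye and 2987 control cells that share a library and a pool. Spearman's rho was at least 0.2 in both libraries for 83 genes and at most -0.2 in both for 82. The most alike was Fth1, with rho 0.48 in dry eye and 0.66 in control. It was followed by Zfand5, a zinc finger protein that stimulates the proteasome, the serine proteases Prss22 (0.44 in dry eye, 0.64 in control), Prss27 and Prss8, the phosphatidate phosphatase Lpin2, the glutathione-degrading enzyme Chac1, Phlda1, the sodium-glucose transporter Slc5a1 and gamma-actin (Actg1). The most opposed were the dynein light chain Dynll1, the basal-type keratin Krt5 (-0.44 in dry eye, -0.62 in control), the retinol-binding protein Rbp2, the corneal crystallin Aldh3a1 (-0.44 in dry eye, -0.54 in control), Mgarp, Ahnak, Hopx, the aquaglyceroporin Aqp3, the sterol enzyme Fdps and the claudin Cldn7. The counts of a thinned cell sum to one total, so a few abundant genes that go up push others down, and no p-value is given.

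Grouped by the marker sum, more dry eye cells lay at the marker-rich end. Cells with 5 or more marker UMIs made up 23.1% of dry eye Squam cells (21.6 to 24.7%) and 13.4% of control ones (12.2 to 14.6%), and cells with 0 made up 49.9% and 67.5%. These groups are ranges of 1 score and not cell types. In dry eye, Krt12 stood at 20649 CPM in cells with 0 marker UMIs, 14518 CPM in cells with 1 to 4 and 14024 CPM in cells with 5 or more. In control the same steps were 15448, 7572 and 2843 CPM, so the libraries were furthest apart in the marker-rich cells. Krt5 behaved alike, with 2581 CPM in the marker-rich cells of dry eye against 607 CPM in those of control. Of the genes most alike to the marker sum, several were lower in those cells of dry eye: Prss22 had 2069 CPM in dry eye against 4998 CPM in control, and Fth1 had 27525 CPM against 54387 CPM. Zfand5, with 2837 CPM in dry eye and 2351 CPM in control, and Lpin2, with 709.9 and 691 CPM, were not. The ribosomal protein share of the marker-rich cells had a median of 5.4% in dry eye and 3.46% in control. The bins lean on Lce3a, which over the class was higher in dry eye. Within the marker-rich cells all 6 markers were lower in dry eye. There Il4i1 had 150 CPM in dry eye and 636 CPM in control, Alpl 161 and 401 CPM, and Lce3a 4834 and 5262 CPM. The marker-rich cells of the libraries thus did not have equal marker levels. Because of the lean on Lce3a, the same split was made with the 5 other markers. A UMI of 1 of these was seen in 38.1% of the dry eye class (36.3 to 39.9%) and 30.4% of the control class (28.7 to 32.0%), a narrower gap. In the 1086 dry eye and 907 control cells with one, Krt12 had 11806 CPM in dry eye and 5465 CPM in control, a ratio of 2.16 (2.14 to 2.18). In the 1768 dry eye and 2080 control cells without one it had 20929 CPM in dry eye and 15300.5 CPM in control, a ratio of 1.37 (1.36 to 1.37). Marker levels were not equal in the cells with one. Il4i1 had 110 CPM in dry eye and 269 CPM in control there, Alpl 156 and 252 CPM, and Lce3f 53.9 and 103 CPM. Cd274 was nearer level at 305 and 324 CPM, as was Krt23 at 299 and 283 CPM. Whether the gaps in Krt12, Krt5, Fth1 and Prss22 remain at equal marker level was not tested.

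**Figure D2:**
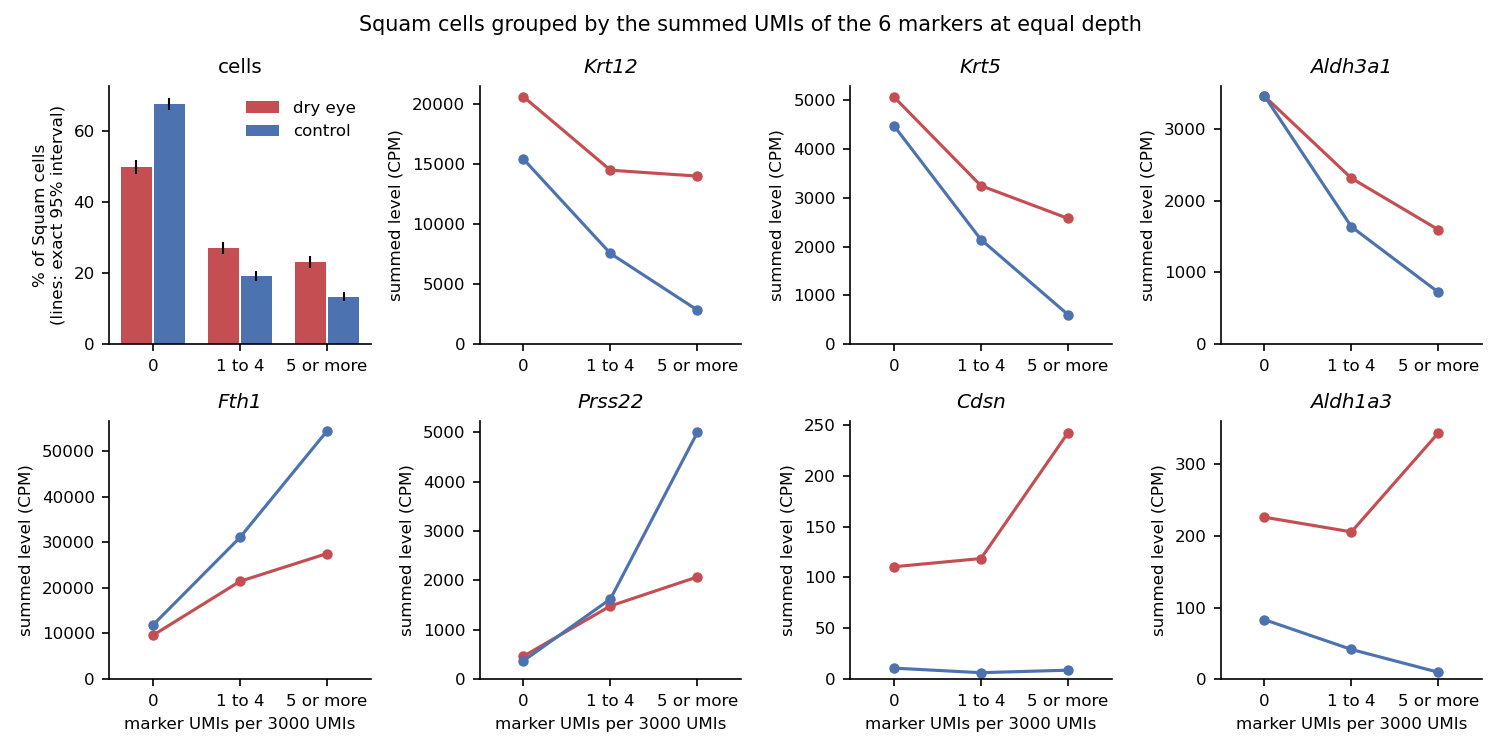
Squam cells grouped by the summed UMIs of the 6 markers after thinning to 3000 UMIs, with the share of cells (bars, exact 95% intervals) and the summed level in CPM of 7 genes, dry eye in red and control in blue. Krt12 stands at 14024 CPM in the marker-rich cells of dry eye against 2843 CPM in those of control, while Fth1 and Prss22 climb further in control.

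The comparison of dry eye with control Squam cells asked how the surface layer differed after loss of the lacrimal glands. Of 3686 tested genes, 40 were at least 2-fold higher in dry eye (1.09%) and 25 were at most 0.5-fold (0.678%). At the smaller step of 1.5-fold, 117 were higher (3.17%) and 204 lower (5.53%). The median log2 ratio over all tested genes was -0.12, and if that shift is removed the counts become 59 higher and 16 lower. The lists below were chosen with earlier results of these data known, and their counts are to be read against these shares. The higher set held 4 genes of the cornified envelope list, 2 small proline-rich genes, 3 of the list of proteases and inhibitors of shedding and 3 of the interleukin-36 group, and the lower set held 3 detoxification genes.

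**Figure D3:**
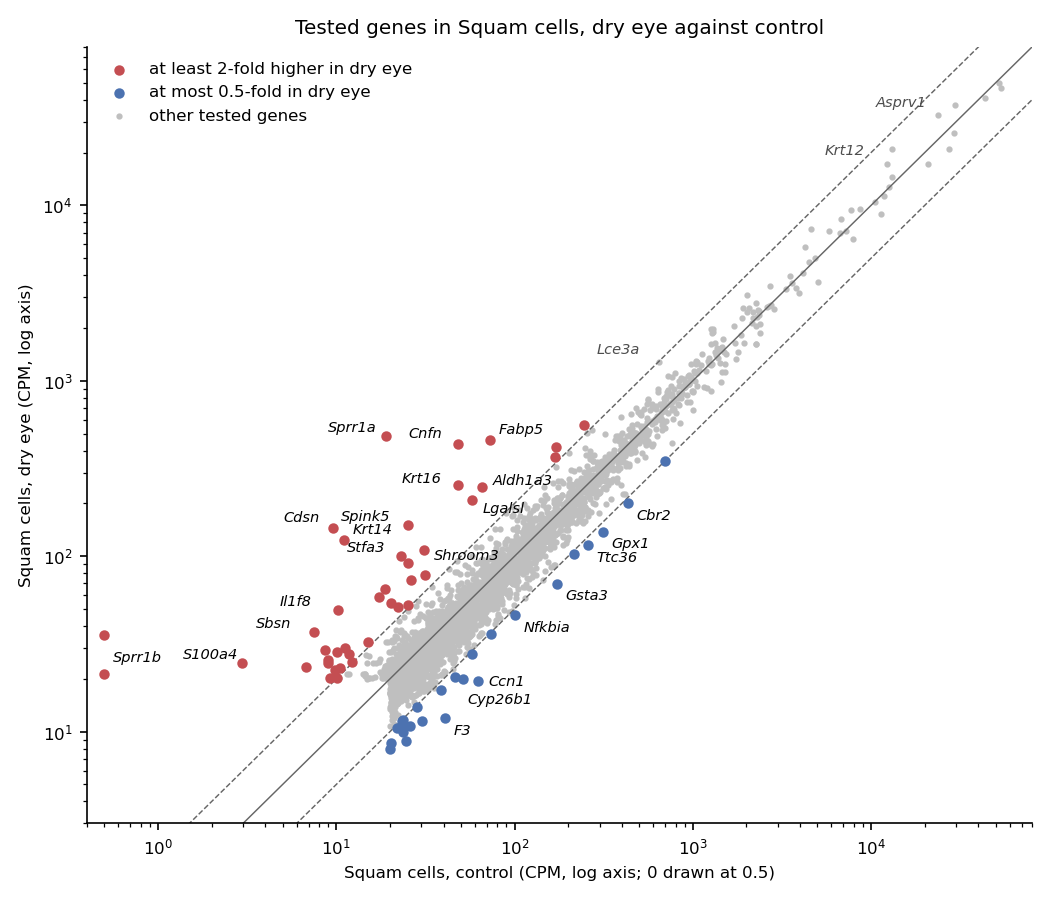
Level of each tested gene in Squam cells of dry eye (vertical) and control (horizontal), both in CPM on log axes, with genes past 2-fold coloured, the solid line at equality and dashed lines at 2-fold. Sprr1a stands at 484 CPM in dry eye and 19 CPM in control, while most abundant genes, Krt12 and Asprv1 among them, lie inside the dashed lines.

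Cornified envelope precursors differed most. Sprr1a, a small proline-rich precursor, had 484 CPM in dry eye and 19 CPM in control, a ratio of 25.5 (23.6 to 27.6). At 3000 UMIs it was seen in 26.5% (24.9 to 28.1%) of the dry eye class and in 3.08% (2.49 to 3.76%) of the control class, so the difference was not that of a few cells. Its neighbour Sprr1b had 21.3 CPM in dry eye from 739 UMIs and was at 0 in control. Set against an assumed floor of 3 counts over the control class, its ratio would be 245, which is not a lower limit. That 0 may be coarse: only 8 genes of the control table had counts in 1 cell and 98 in 2 cells, against 484 in 3 cells, so a 0 over a library may stand for counts in up to 2 cells. Cdsn, which encodes corneodesmosin of the cornified cell junction, had 145 CPM in dry eye and 9.60 CPM in control, a ratio of 15.1 (13.5 to 16.9). Cnfn, the envelope component cornifelin, had 436 CPM in dry eye and 48.2 CPM in control, a ratio of 9.05 (8.61 to 9.53). A UMI of Cdsn was found in 23.1% of dry eye and 2.21% of control cells, and one of Cnfn in 36.1% and 7.77%. Of the 13 tested envelope genes outside the Sprr family, 4 were at least 2-fold higher and 0 lower. The median log2 ratio was 0.62, against -0.12 over all tested genes. Intervals lay above 1 for 10 of the 13 and below 1 for 2. Ivl and Lor, also in the list, were below the 20 CPM limit for testing. In cells with 0 marker UMIs, Ivl had 0.299 CPM in dry eye and 0.949 CPM in control, and Lor 0.299 and 0.518 CPM. Tgm5 had 21.4 CPM in dry eye and 27.9 CPM in control in those cells. Tgm1, the transglutaminase that crosslinks the envelope, was under 2-fold with 66.9 CPM in dry eye and 34.5 CPM in control. The scaffold genes Evpl (envoplakin, 628 CPM in both) and Scel (sciellin, 332 CPM in dry eye and 314 CPM in control) were nearly level.

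Of the tested Lce3 genes, which encode late cornified envelope proteins, all but Lce3f were higher in dry eye, and the Lce3f difference rested on few cells. Lce3a had 1278 CPM in dry eye and 648 CPM in control, a ratio of 1.97 (1.94 to 2.0). Lce3b had 25 CPM in dry eye and 12.2 CPM in control, and Lce3c 32.5 and 15.1 CPM. Lce3f went the other way with 22.3 CPM in dry eye and 31.2 CPM in control, but 10 cells held 63.7% of its dry eye counts and 85.9% of its control counts, and without them its log2 ratio turned to 0.88. Lce3a was instead spread wider in dry eye: at equal depth a UMI was found in 29.4% of the dry eye class (27.7 to 31.1%) and 12.1% of the control class (10.9 to 13.3%). In cells without any other marker, Lce3a had 517 CPM in dry eye and 50.1 CPM in control, a ratio of 10.3, whereas in cells with another marker it had 2481 CPM and 2013 CPM, a ratio of 1.23. Shared sequence may affect the counts of the family. Of the 31-base words, 49.7% in Lce3c and in Lce3f transcripts, 30.4% in Lce3a and 26.7% in Lce3b also occur in another Lce3 transcript. The words cover whole transcripts and the libraries were made with 3' chemistry, so these shares do not measure the reads affected.

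The Lce3 genes lie side by side on chromosome 3 within the epidermal differentiation complex, the cluster that also holds the Sprr and S100 genes. Their promoters are shown because these near copies differed in level. The 150 bases before each start site are given 5′ to 3′ from RefSeq (GRCm38.p6), for Lce3a at chr3:92926231-92926380 on the minus strand, Lce3b at chr3:92932829-92932978, Lce3c at chr3:92944336-92944485 and Lce3f at chr3:92992067-92992216, all plus. Capitals mark TTGNGAAA and ATAAAA, letters that the 4 windows share on the gene's own strand, picked after the sequences were read.
Lce3a: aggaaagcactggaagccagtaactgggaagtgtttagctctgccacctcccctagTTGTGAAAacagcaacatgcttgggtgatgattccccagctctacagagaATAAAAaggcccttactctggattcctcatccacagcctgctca
Lce3b: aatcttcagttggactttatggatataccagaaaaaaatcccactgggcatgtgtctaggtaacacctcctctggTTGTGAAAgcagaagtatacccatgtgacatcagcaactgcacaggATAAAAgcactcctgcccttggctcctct
Lce3c: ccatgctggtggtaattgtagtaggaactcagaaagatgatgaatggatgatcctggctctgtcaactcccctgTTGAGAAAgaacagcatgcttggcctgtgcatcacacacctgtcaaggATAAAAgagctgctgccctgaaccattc
Lce3f: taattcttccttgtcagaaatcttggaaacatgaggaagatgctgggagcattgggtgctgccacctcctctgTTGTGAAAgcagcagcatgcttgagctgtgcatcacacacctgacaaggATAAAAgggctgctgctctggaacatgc
In windows from 250 bases before to 50 after the start sites, TTGNGAAA occurred on either strand in 4.76% and ATAAAA in 18.5% of 32851 genes' promoters. ATAAAA began 28 bases before the start in Lce3c and Lce3f, 29 in Lce3b and 44 in Lce3a. Of 4 motifs searched on both strands, CACCC (the core bound by Krüppel-like factors, in 57.5% of all windows) was found in Lce3a and Lce3f, and TATAAA (the core promoter box, 13.6%), TGANTCA (AP-1, 7.81%) and AACNGGTT (grainyhead-like, 2.09%) were not found in these letters in any of the 4. The runs are letters in a window and not shown binding sites.

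The wider epidermal differentiation complex, chr3:90511034-93526287 in GRCm38 between S100a1 and S100a11, had 18 tested genes, of which 6 were at least 2-fold higher in dry eye and 0 lower. Besides Sprr1a, Sprr1b, Lce3b and Lce3c these were S100a4 and S100a7a. S100a7a, the mouse relative of the antimicrobial psoriasin, had 420 CPM in dry eye and 171 CPM in control, and 50.7% of dry eye and 23% of control cells had a UMI at equal depth. At 1.5-fold, 8 were higher and 1 lower, S100a9 (17.9 CPM in dry eye, 29.8 CPM in control), a subunit of calprotectin. The abundant members S100a6, with 49840 CPM in dry eye and 52140 CPM in control, and S100a14, with 2537 and 2316 CPM, were nearly level.

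Proteases and protease inhibitors of shedding followed. Spink5, whose product LEKTI inhibits kallikreins in skin, had 150 CPM in dry eye and 25.2 CPM in control, a ratio of 5.95 (5.54 to 6.4). Stfa3, a stefin that inhibits cysteine proteases, had 99.7 CPM in dry eye and 23.2 CPM in control, a ratio of 4.30 (3.98 to 4.65). Of the kallikreins, serine proteases that cut the bonds between surface cells of skin, 3 were tested, and they are named because of their values. Klk10 had 64.7 CPM in dry eye and 18.8 CPM in control, Klk11 85.1 and 43.0 CPM, and Klk8, which cuts corneodesmosome proteins, 48.6 and 25.2 CPM. Of the 25 tested genes in the list, 3 were at least 2-fold higher and 0 lower, and 9 passed 1.5-fold upward and 2 downward; the median log2 ratio was 0.33. The 2 below were Slpi, the secretory leukocyte protease inhibitor (28.9 CPM in dry eye, 49.0 CPM in control), and Serpinb1a (60.6 and 102 CPM). The abundant cystatin gene Cstdc5 had 21053 CPM in dry eye and 13136 CPM in control. St14, the membrane protease matriptase, stood at 86.6 CPM in dry eye and 54.9 CPM in control, while Prss8, which works with it in skin, was nearly level at 227 and 233 CPM.

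Among the keratins, Krt14 and Krt16 passed 2-fold by the largest ratios. Krt16, induced in injured and hyperproliferative epidermis, had 255 CPM in dry eye and 48.3 CPM in control, a ratio of 5.27 (5.0 to 5.56), and was seen in 19.1% of dry eye and 4.75% of control cells. Krt6a had 5783 CPM in dry eye and 4267 CPM in control, and Krt6b 8411 and 6782 CPM. Krt14, a basal keratin, had 123 CPM in dry eye and 11.1 CPM in control, the larger ratio, but Squam had the lowest Krt14 of the 8 classes with at least 100 cells in each library, so free RNA cannot be bounded for it. Krt13 and Krt19, keratins of mucosal epithelia, had ratios of 1.60 and 1.58, with 7364 CPM of Krt13 in dry eye and 4600 CPM in control. Krt12 was 17322 CPM in dry eye and 12305 CPM in control, a ratio of 1.41 (1.40 to 1.41). Pax6, the eye-field factor, was nearly level with 178 CPM in dry eye and 185 CPM in control. No keratin of simple and mucosal epithelia passed 2-fold, and the median of 7 was 0.44 on the log2 scale.

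Of the epithelial cytokines above the limit for testing, those past 2-fold were of the interleukin-36 group, which signal through a shared receptor and drive skin inflammation. All 3 that were tested, at chr2:24153161-24351494, were at least 2-fold higher in dry eye. Il1f8 (IL-36 beta) had 49.2 CPM in dry eye and 10.2 CPM in control, Il1f6 (IL-36 alpha) 28.5 and 10.1 CPM, and Il1f9 (IL-36 gamma) 51.2 and 22.3 CPM. Cells with a UMI of Il1f8 at equal depth were 11.4% in dry eye (10.3 to 12.7%) and 2.78% in control (2.22 to 3.43%). In cells without a marker other than Lce3a, Il1f9 had 29.2 CPM in dry eye and 3.92 CPM in control, while in cells with one it had 85.6 and 64.0 CPM. Il1f8 did not share this split, with a ratio of 4.45 in cells without such a marker and 5.12 in cells with one. Il1a and Il18, cytokines stored in epithelium, were nearer level, with 27.6 CPM of Il1a in dry eye and 21.7 CPM in control. Il4i1 was lower, with 44.2 CPM in dry eye and 83.4 CPM in control, a ratio of 0.531, and Cd274 was 138 CPM in dry eye and 111 CPM in control. Over the list of 41 ligands, 9 were tested, 3 of them at least 2-fold higher and 0 lower. Below the 20 CPM limit, members went both ways. Tslp was higher, with 41 UMIs in 37 dry eye cells and 4 UMIs in 4 control cells. Tnf was lower, with 3.77 CPM in dry eye and 13.9 CPM in control. The neutrophil chemokine Cxcl2 had 5 UMIs in 1 dry eye cell and 448 UMIs in 12 control cells. Cxcl1 had 6 UMIs in 4 dry eye cells and 131 UMIs in 13 control cells. Cxcl10 had 0 UMIs in dry eye and 29 UMIs in 2 control cells. A few control cells thus set these chemokine differences. Of the type I interferon response, 12 of 16 tested genes had intervals below 1 and 1 above, though 54.1% of all tested genes had intervals below 1 as well. Ifit3b (48.2 CPM in dry eye, 93.5 CPM in control) and Ifit3 (65.7 and 121 CPM) were the lowest of them, and Oasl1 was the exception with 368 CPM in dry eye and 168 CPM in control, a ratio of 2.19 (2.13 to 2.26). Of 13 genes of the interferon gamma response and MHC class I, 0 passed 1.5-fold either way, with a median of -0.23.

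Detoxification and redox genes lay on the lower side. Of 18 tested members, 1 was at least 2-fold higher and 3 at most 0.5-fold, with 2 past 1.5-fold upward, 6 past it downward and a median log2 ratio of -0.30. Gpx1, a glutathione peroxidase, had 138 CPM in dry eye and 313 CPM in control, a ratio of 0.442 (0.427 to 0.457). Cbr2, a carbonyl reductase, had 200.1 CPM in dry eye and 432 CPM in control, a ratio of 0.463 (0.450 to 0.477), and the carboxylesterase Ces1d 10.0 and 23.6 CPM. The glutathione transferase Gsta3, outside that list, had 69.6 CPM in dry eye and 172 CPM in control. The main transferases of the cornea did not share this: Gsto1 had 41185 CPM in dry eye and 43809 CPM in control, and Gsta4 7154 and 7243 CPM. The gene past 2-fold upward was Aldh1a3, which makes retinoic acid, with 249 CPM in dry eye and 65.6 CPM in control, a ratio of 3.79 (3.62 to 3.97). Of other retinoid genes, Cyp26b1, which degrades retinoic acid, had 20.03 CPM in dry eye and 51.7 CPM in control, and Adh7, a retinol-oxidizing dehydrogenase, 27.7 and 53.7 CPM.

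Other genes of the lower set had mixed roles. F3, the clotting initiator tissue factor, had 12 CPM in dry eye and 40.8 CPM in control, a ratio of 0.293 (0.262 to 0.327). Ccn1, a matricellular protein, had 19.3 CPM in dry eye and 62.3 CPM in control, and Nfkbia, the inhibitor of NF-kappa-B, 46.2 and 100.5 CPM. These 2 were features of the marker-bearing control cells: with a marker other than Lce3a, Ccn1 had 38.7 CPM in dry eye and 184 CPM in control, and without one it had 6.90 and 8.55 CPM. Nfkbia had 41.8 CPM in dry eye and 244 CPM in control in the marker-bearing cells, and the reverse order in the others, with 48.7 CPM in dry eye and 37.8 CPM in control. Ttc36 had 116 CPM in dry eye and 258 CPM in control. Cyp2a5, Ccdc51, Rabgap1l, Cav2 (caveolin 2), Asb13 and the receptor gene Kit complete the 15 lowest, with ratios between 0.357 and 0.441. For F3, Gpx1, Gsta3, Kit, Cav2, Ccdc51 and Ces1d the difference could not be told apart from the bound on free RNA, and after that bound was subtracted 6 of the 25 lower genes and 31 of the 40 higher genes were still past 2-fold.

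Tight junction genes stayed inside 1.5-fold, and the glycocalyx list had 1 of 12 tested genes past 2-fold. None of 17 tested tight junction genes passed 1.5-fold in either direction. Over all tested genes only 3.17% were higher and 5.53% lower by that step, so 0 of 17 is near those shares. Of the 17, 11 had intervals above 1 and 0 below, against 23.1% and 54.1% of all tested genes. Cldn4, a sealing claudin, was the highest, with 91.5 CPM in dry eye and 61.9 CPM in control, and Tjp1 (ZO-1) had 377 and 364 CPM. Muc4, the main membrane mucin here, had 2270 CPM in dry eye and 1879 CPM in control. Gm9573, the gene listed in RefSeq as Muc21, had 1974 CPM in dry eye and 1264 CPM in control, a ratio of 1.56, and Muc1 had 50.9 and 56.7 CPM. The gene past 2-fold was Lgals7, a galectin of stratified epithelia, with 23.5 CPM in dry eye and 6.76 CPM in control, and Galnt4, which starts O-glycans, was lower with 35.6 and 63.6 CPM. Muc16, a mucin well known from the human ocular surface, had 1 UMI in dry eye Squam cells and 0 in control. Among desmosome genes 0 of 10 passed 2-fold, and 2 lay past 1.5-fold downward, the cadherins Dsg1a (80.6 CPM in dry eye, 127 CPM in control) and Dsc3 (38.7 and 58.5 CPM). Of 20 barrier transcription factors 1 passed 2-fold, Elf5 of the ETS family, with 58.5 CPM in dry eye and 17.4 CPM in control; Klf4 had 1064 and 722 CPM. Fabp5, a fatty acid-binding protein of keratinocytes, had 461 CPM in dry eye and 73.0 CPM in control, a ratio of 6.32 that became 2.99 after the free RNA bound. The remaining genes among the 15 highest were S100a4, Sbsn (suprabasin, 37.1 and 7.49 CPM), Lgalsl (a galectin-like protein, 209 and 58.0 CPM) and Shroom3, an organizer of apical actin, with 109 CPM in dry eye and 30.9 CPM in control.

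**Figure D4:**
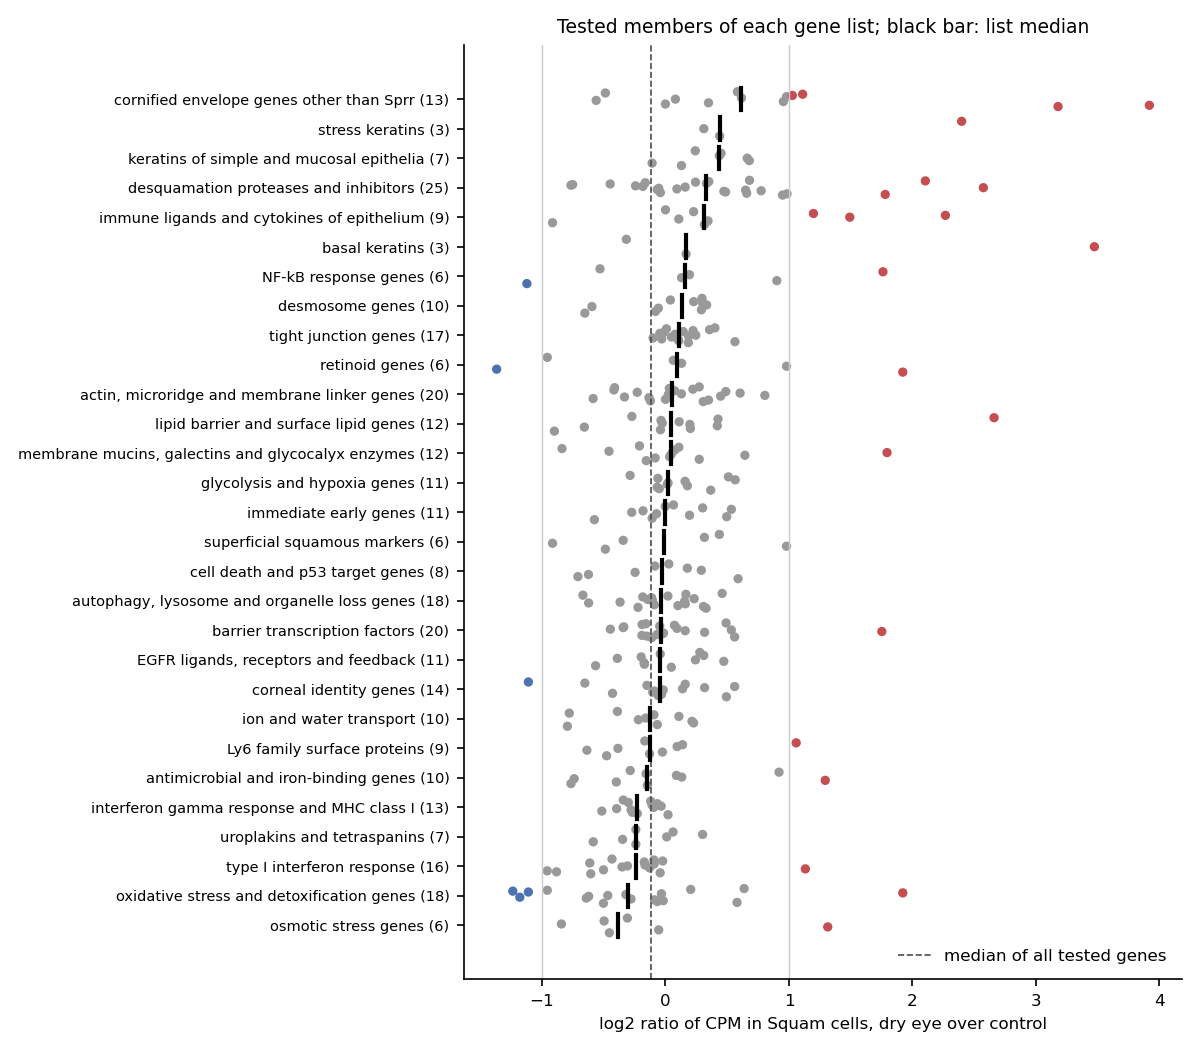
Log2 ratio of CPM in Squam cells, dry eye over control, for every tested member of each gene list (points, red past 2-fold up, blue past 2-fold down), with the list median as a black bar and the number of tested members in parentheses. The envelope list has a median of 0.62 and the detoxification list -0.30, against the dashed line at -0.12 for all tested genes.

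Many of these differences were not limited to the superficial class. In dry eye the small proline-rich list, Sprr1a among it, summed to 507 CPM in Squam and to 745 CPM in Wing, its highest class. In control it summed to 19.1 CPM in Squam and was highest in Conj, with 35.2 CPM. Side by side, the dry eye over control ratio of Cnfn was 9.05 in Squam, 58.7 in Wing (57.8 CPM in dry eye, 0.984 CPM in control) and 4.07 in Conj. Krt16 had 5.27 in Squam, 25.2 in Wing and 1.36 in Conj, and Cdsn 15.1, 26.7 and 7.87. In contrast, the ratio of Spink5 was 5.95 in Squam, 2.94 in Wing and 1.17 in Conj, with intervals that did not overlap, and that of Stfa3 4.30, 1.90 and 1.64. F3 had a ratio of 0.293 in Squam, 0.569 in Wing and 0.712 in Conj, and Gpx1 0.442, 0.897 and 0.906. Nfkbia had 0.459 in Squam and 1.40 in Wing. Of the genes tested in both classes, 0 of 3204 were past 1.5-fold in opposite directions in Squam and Wing, and 0 of 3330 in Squam and Conj. The classes share each library's free RNA and pool, so agreement between them is no separate support.

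**Figure D5:**
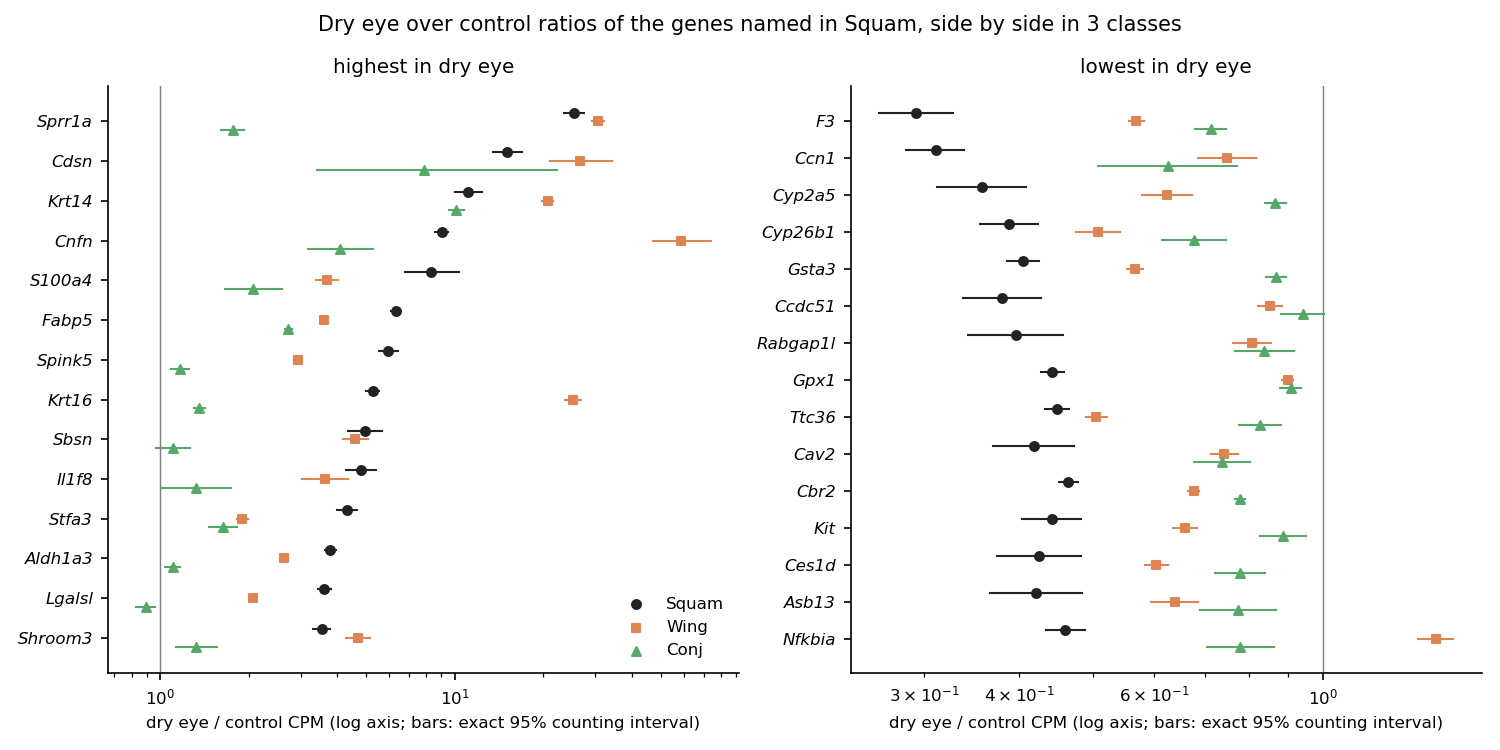
Ratio of CPM, dry eye over control (log axis), of the genes named as highest (left, without Sprr1b, which is at 0 in control) and lowest (right) in Squam, with the same ratio in Wing and Conj; bars are exact 95% counting intervals. Cnfn and Krt16 lie further right in Wing (58.7 and 25.2) than in Squam (9.05 and 5.27), while Spink5 and Fabp5 lie furthest right in Squam.

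Squam was also set against Squam* within the dry eye library. Of 3908 tested genes, 157 were at least 2-fold higher in Squam than in Squam* (4.02%) and 343 were at most 0.5-fold (8.78%). Several stress and basal genes were far lower in Squam: Krt16 had 255 CPM in Squam and 13217 CPM in Squam*, Krt14 123 and 5155 CPM, and Fabp5 461 and 5218 CPM. Krt5, with 3967 CPM in Squam and 6632 CPM in Squam*, stayed inside 2-fold. Higher in Squam were Il4i1 (44.2 CPM in Squam, 0.550 CPM in Squam*), Phgr1 (44.1 and 1.37 CPM), the secreted Ly6 protein Slurp2 (52.5 and 3.85 CPM), Snx31, Rab17, Plpp1, Slc16a11, Upk3b and Id2, an inhibitor of helix-loop-helix factors (685 and 136 CPM). The envelope genes did not line up on either side, with Cdsn at 145 CPM in Squam and 60.5 CPM in Squam*, and Cnfn at 436 and 2317 CPM. Squam cells of dry eye had values between those of control Squam and of Squam* for Krt16, Krt14, Fabp5 and Cnfn, but not for Cdsn or Lce3a. These are single genes. Free RNA could not be bounded for Krt14, and the Fabp5 difference shrank after that bound. Of the 343 genes lower in Squam, 195 were tested for dry eye over control. Of these, 37 were at least 1.5-fold higher in dry eye Squam and 14 lower, with a median log2 ratio of -0.03. Over all 3686 tested genes, 117 were higher and 204 lower, with a median of -0.12. Of the 157 genes higher in Squam, 8 were higher in dry eye and 26 lower.

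Markers of several other cell types were low in Squam. Of the class II and leukocyte list, the defining Ptprc, Cd3e, Cd3g, Lyz2 and Cd207 were at 0 in both libraries; the summed level of 13 measured members was 24.7 CPM in dry eye and 3.58 CPM in control, nearly all of it S100a4 (24.5 and 2.95 CPM), which many cells express. Goblet cell markers summed to 12.4 CPM in dry eye and 14.4 CPM in control, dividing cell markers to 27.8 and 26.2 CPM, red cell markers to 1.67 and 2.02 CPM, melanocyte markers to 1.06 and 1.13 CPM, and corneal endothelial and vascular markers to 0.547 and 0.636 CPM. Markers of neighbouring epithelium were not low: those of the basal and limbal list summed to 7552 CPM in dry eye and 7728 CPM in control, most of it Krt5 and Krt15, against 22328 and 22376 CPM in Conj, where they were highest. The list of conjunctival epithelium summed to 69544 CPM in dry eye and 69386 CPM in control, more than in any other class, and rests on S100a6, Aqp5 and Krt13, which corneal cells express too. The Schwann and nerve list was also highest in Squam, at 120.1 CPM in dry eye and 147 CPM in control, nearly all of it Mbp (119.98 and 147 CPM). Wing markers summed to 23684 CPM in dry eye and 17071 CPM in control Squam, and were highest in Wing. The epidermal and lid margin list, which includes Calml3, summed to 4168 and 4171 CPM and was also highest in Wing. The stromal keratocyte and fibroblast list, which includes the corneal crystallin Aldh3a1, summed to 2690 and 2752 CPM and was highest in Basal. The part of such RNA in the ratios above was not tested. Barcodes were shared by the libraries for 74 cells, 2 of them Squam in both. Of 29 lists with at least 3 tested members, 21 had a median above that of all tested genes.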

How the data were processed

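The authors deposited a table of raw, unscaled UMI counts with 17891 genes and 33885 cells, and an annotation that names the library and class of each cell. Libraries were made with Chromium 3' v3.1 chemistry after enzyme G and 0.25% trypsin, per the labels' protocols. The submitters' processing notes name Cell Ranger 6.0.1, Seurat 4 and the build mm10; cell filters and the way cells were classed are not given in the sources used here. In the table, 0 values were not whole.

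Counts were summed per class and library with Python 3.11.15, numpy 2.4.6, scipy 1.17.1 and pandas 2.3.3. A gene was tested with at least 50 UMIs over both groups and 20 CPM in one. Ratios have exact Clopper-Pearson intervals of the count split, and 1 UMI was worth 0.0288 CPM in dry eye and 0.0289 CPM in control Squam. Cells were thinned to 3000 UMIs with seed 1. Free RNA was not removed; as a bound, the upper Poisson limit of the mean UMIs of a cell in the lowest class (of 8 with at least 100 cells in each library) was subtracted from the library with the higher level. No doublet caller was run. The ratios, intervals and calls were run on simulated independent Poisson counts with known ratios. Those counts lack both the clustering of UMIs in few cells and the spread between animals. The intervals were thus not tested against either. Thinning was checked on Squam cells for equal depth.

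Members, lists and rules were chosen with earlier results of these data known. Named genes were the 15 highest and 15 lowest in dry eye over control by the interval bound nearest to 1, the 12 in each direction against Wing, the 10 against Squam*, the 3 highest and lowest of each list, 23 genes whatever their values, and the 10 at each end of the marker correlation. Predicted, mitochondrial, ribosomal protein and haemoglobin genes were left out. Other genes named (such as Lce3b, Lce3c and the kallikreins) were picked after their values were seen. Coordinates come from GENCODE vM21 on the same build and are 1-based. Results on a few single genes are not reported here.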

Additional observations from a re-analysis of the deposited data

How the results depend on the processing

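No paired analysis was possible because each group has 1 library and the labels give no replicate numbers; for the same reason no replicate could be left out. Scaling by median-of-ratios gave 59 higher and 16 lower genes, in place of 40 and 25. With at least 20 UMIs and no CPM minimum, 270 were higher and 493 lower, many of them at few counts. Subtracting the free RNA bound left 31 higher and 6 lower, and lists with a median above that of all genes numbered 4 in place of 21, since most differences under the bound are set to no change by construction. Split by markers other than Lce3a, a choice made after seeing the data, cells with one gave 71 higher genes (30 shared with the main set) and 31 lower (5 shared), and cells without gave 55 and 29. In cells without, Nfkbia turned to a log2 ratio of 0.37. The gap in share of Squam, 0.608 points over all cells, was 2.65 without starred classes, 7.27 among Wing, Wing*, Squam and Squam*, 11.6 among Wing and Squam alone (added after seeing the data) and 1.93 with Squam* added. The other settings (mean over cells, at least 2000 UMIs, without the 5% deepest cells, at most 5% mitochondrial UMIs, with Squam*, without the 10 cells with the most counts) gave 34 to 53 higher and 23 to 30 lower genes. Over all settings, 1681 log2 ratios of named genes kept their sign and side of 2-fold, 50 turned sign inside it, 26 fell inside it, 27 passed it and 1 past it reversed. Of the 50, 18 were in cells with a marker other than Lce3a, where Krt15 stood at 0.74 in place of -0.32 and Pax6 at 0.41 in place of -0.06, and 11 under median-of-ratios scaling. Depth limits genes under 20 CPM, and counting intervals leave out the spread between animals.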

Other observations

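Outside the comparisons, the control library held 12 cells of the class Wing*. Their levels of Lce3a, Alpl and Cd274 were near those of control Squam as a whole, while other genes differed from both that class as a whole and Wing. Lce3a had 635 CPM in these cells, against 648 CPM in Squam and 1.49 CPM in Wing of control, with its 123 UMIs in 4 of the 12 cells. Krt23 had 336 CPM, against 90.9 CPM in control Squam, and was seen in 7 of the 12 cells. Cnfn had 1611 CPM, against 48.2 CPM in control Squam and 0.984 CPM in control Wing, and was seen in 10 of the 12. Krt12 had 3300 CPM, against 12305 CPM in control Squam. The control Squam cells with 5 or more marker UMIs were nearer for Krt12, with 2843 CPM. Their median ribosomal protein share was 3.46%, against 3.80% in the 12 cells. For Lce3a, with 5262 CPM, and Cnfn, with 140 CPM, those Squam cells were not near. These cells were picked out after their values were seen, and 12 cells of 1 library allow no comparison.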
